A study of Mus musculus with 6 samples.

Results

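Retinoic acid synthesis, breakdown and response were followed through 9 genes chosen by name from the 23420 gene rows of the expression table: *Aldh1a1*, *Aldh1a2* and *Aldh1a3* for synthesis, *Dhrs3* for the reduction of its precursor, *Cyp26a1* and *Cyp26b1* for breakdown, *Crabp1* and *Crabp2* for binding in the cytosol, and the receptor gene *Rarb*. The rule takes these names and uses no measured value. The study removed *Rptor* (*Raptor*), which encodes a scaffold of mTOR complex 1 (mTORC1), from the epithelium of the mouse embryonic lung. Whole lungs were collected at stage E11.5dpc (*dpc*, days post coitus), pooled by genotype and sequenced as 3 control and 3 mutant pools. By the genotypes in the sample labels, control lungs were *Rptor* f/+; *Shh* Cre/+ and mutant lungs were *Rptor* f/f; *Shh* Cre/+, where f is a floxed allele that Cre converts to a null allele. By these labels both groups carried the *Shh* Cre allele and at least 1 floxed *Rptor* allele, and neither group was wild type. The *Shh* promoter drives Cre in the lung epithelium, so the mesenchyme, mesothelium and endothelium in each pool kept their *Rptor* alleles.

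Retinoic acid is made from vitamin A. Retinol is oxidised to retinaldehyde, a step that DHRS3 reverses, and the ALDH1A enzymes oxidise retinaldehyde irreversibly to retinoic acid, which the CYP26 enzymes then hydroxylate for clearance. In the nucleus it binds receptors of the RAR family, which pair with RXR on direct repeats in DNA and can induce genes that include *Rarb*, *Cyp26a1* and *Dhrs3*. In the early foregut, retinoic acid made by ALDH1A2 in the mesoderm is required for the lung buds to form.

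*Rarb* and *Cyp26a1* are textbook targets of these receptors, and their promoters are shown because each holds the receptors' repeat upstream of the start. The 250 bases before each RefSeq start (GRCm38.p6) are written 5′ to 3′ on the strand of the gene, with capitals marking 2 hexamers that are separated by 5 bases. The *Rarb* window is chr14:16575477-16575726 on the minus strand, and the *Cyp26a1* window is chr19:37697558-37697807 on the plus strand.
Rarb: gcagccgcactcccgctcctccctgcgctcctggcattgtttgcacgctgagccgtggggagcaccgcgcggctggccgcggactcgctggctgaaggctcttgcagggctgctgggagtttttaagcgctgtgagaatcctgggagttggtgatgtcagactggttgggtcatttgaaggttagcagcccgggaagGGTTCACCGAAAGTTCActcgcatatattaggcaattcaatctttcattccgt
Cyp26a1: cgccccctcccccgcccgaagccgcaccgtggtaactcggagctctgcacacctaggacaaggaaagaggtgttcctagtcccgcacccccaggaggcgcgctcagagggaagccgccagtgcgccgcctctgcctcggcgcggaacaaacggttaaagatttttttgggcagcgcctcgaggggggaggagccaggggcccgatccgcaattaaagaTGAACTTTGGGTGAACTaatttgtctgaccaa
The repeat lay at positions -53 to -37 from the start of *Rarb*, in the direction of the gene, and at -32 to -16 from that of *Cyp26a1*, on the opposite strand. This start of *Rarb* lies inside the gene, whose upstream end is annotated at 16819156, and no window at that end was searched. The search used any pair of the hexamers AGGTCA and AGTTCA or of their variants with G first, GGGTCA and GGTTCA, in direct repeat with 1, 2 or 5 bases between them, on both strands, from 250 bases before to 50 after the start. Of 32851 promoter windows in the RefSeq table, 32 (0.0974%) held a repeat with 5 bases between the hexamers and 193 (0.588%) held any of the 3 repeats. No repeat was in the windows of *Aldh1a1*, *Aldh1a2*, *Dhrs3*, *Cyp26b1* or *Crabp1*. A match is a stretch of letters and no measure of binding.

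The values are normalized counts, in which a size factor for each library has been divided out of its reads per gene. The libraries held 20197642 to 21276090 reads. Normalized counts were compared as log2(normalized count + 1) with limma (linear models across all genes) for the 17168 genes that reached 1 or more in 3 or more libraries, and p-values were adjusted over all of them by the Benjamini-Hochberg method. Values are given as mean ± SD over 3 pools per group. The targeted gene *Rptor* (chr11:119602905-119899576, plus strand) did not pass the test in whole lungs. Its normalized count was 2199 ± 77.0 in control and 2103 ± 69.1 in mutant pools (log2 fold change -0.06, adjusted p = 0.584, limma), and the counts cover the whole gene in all cell types and can include reads of *Rptoros*, which overlaps it on the opposite strand. Control pool 3 was the most extreme, with the highest of the 6 values for 25.4% and the lowest for 24.3% of all tested genes. The other pools had the highest for 11.8% to 19.3% and the lowest for 12.7% to 18.5%, control pool 2 being next in both. Values without control pool 3 are given beside the genes it moved most. Without it, 468 of all genes passed the adjusted p of 0.05 (limma), against 86 with it.

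All 9 genes passed the filter on low values. None passed an adjusted p of 0.05 (limma), against 0.501% of all tested genes. At an unadjusted p under 0.05, *Dhrs3*, *Aldh1a2* and *Cyp26b1* were higher in mutant pools and *Cyp26a1* was lower, which is 4 of 9 genes against 13.6% of all tested genes (6.67% higher and 6.89% lower). The control and mutant pools did not overlap for 3 of the 9 genes, *Dhrs3*, *Aldh1a2* and *Cyp26b1*, all higher in the mutant, where 20.2% of all tested genes did not overlap (9.77% higher and 10.5% lower in the mutant). The median log2 fold change of the 9 genes was 0.07, and that of all tested genes was -0.00. DESeq2 on the reads recovered from the same 6 libraries called 1 of the 9 genes (*Dhrs3*), where it called 279 of all genes. On those reads edgeR called 0 of the 9 and 79 of all genes. On the reads of 5 libraries without control pool 3, edgeR called 2 of the 9 (*Dhrs3* and *Aldh1a2*) and 545 of all genes. Limma called 86 of all genes, and the fit of 5 libraries was added after the data were seen.

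**Figure D1:**
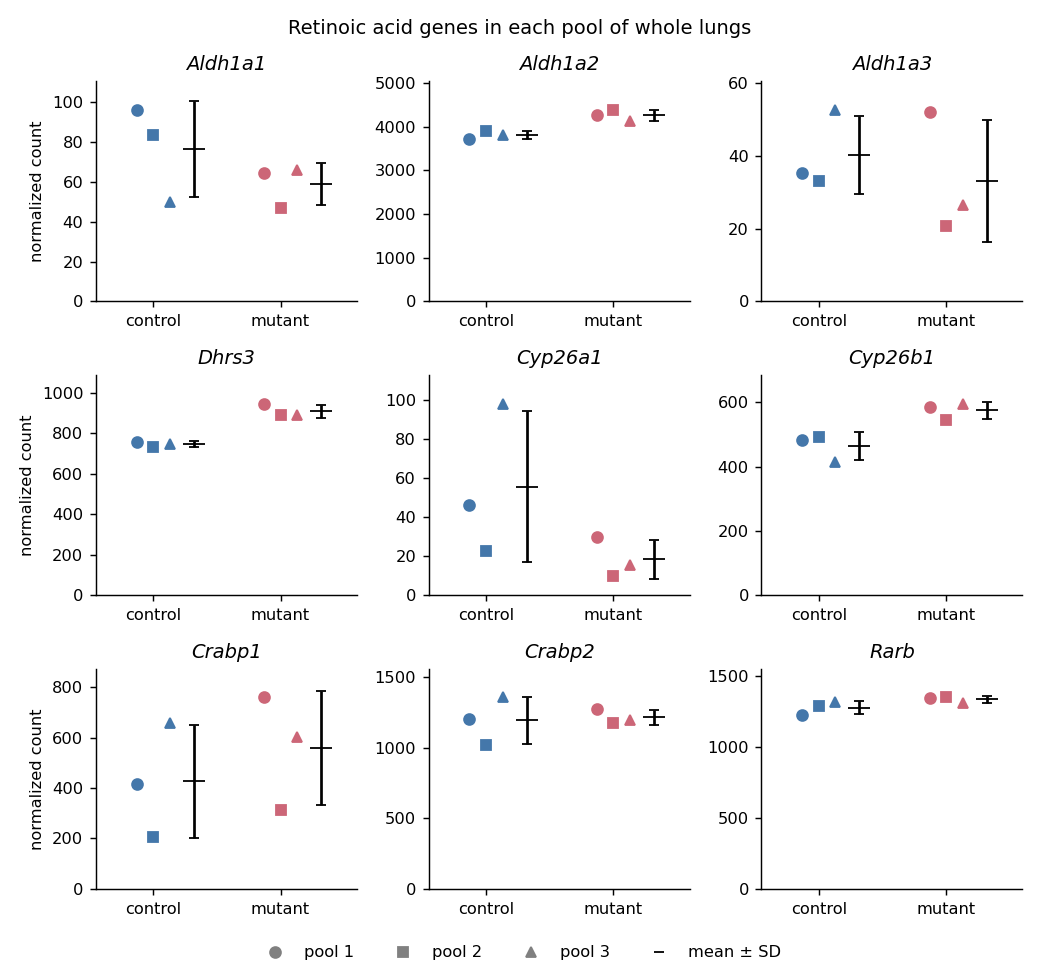
Normalized count (linear axis from 0) of each of the 9 genes in 3 control and 3 mutant pools, with 1 point per pool and the mean ± SD of each group beside the points. The mutant points lie above all control points for *Aldh1a2*, *Dhrs3* and *Cyp26b1*, and the groups overlap for the other 6 genes.

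*Aldh1a2* (chr9:71215789-71296243, plus strand) encodes the enzyme that makes most retinoic acid in the early embryo. Its normalized count was 3715, 3907 and 3805 in control pools 1 to 3 and 4264, 4387 and 4139 in mutant pools 1 to 3. Every mutant pool was above every control pool, and the pools within a group varied by little (coefficient of variation 2.53% in control and 2.90% in mutant pools). The mean was 1.12-fold higher in the mutant, with a log2 fold change of 0.16 (SE 0.04, 95% interval 0.07 to 0.25, unadjusted p = 0.00248, adjusted p = 0.126, limma). Without control pool 3 the log2 fold change was again 0.16, with an adjusted p of 0.0525 by limma and 0.0431 by edgeR. Without any other single pool the adjusted p was 0.0865 (control pool 2) to 0.370 (mutant pool 3) by limma.

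*Aldh1a1* (chr19:20492715-20643465, plus strand) and *Aldh1a3* (chr7:66390890-66427517, minus strand) encode related retinaldehyde dehydrogenases. *Aldh1a1* had normalized counts of 96.3, 83.7 and 49.7 in controls 1 to 3 and 64.4, 47.1 and 65.8 in mutants 1 to 3. Control pools 1 and 2 were above all mutant pools, while control pool 3 lay among them, and the log2 fold change of -0.33 (95% interval -0.89 to 0.23) had an adjusted p of 0.607 (limma). It was -0.61 without control pool 3 (adjusted p = 0.128), -0.14 without control pool 1 and -0.18 without mutant pool 2. *Aldh1a3* had normalized counts of 35.4, 33.1 and 52.7 in controls 1 to 3 and 52.1, 20.6 and 26.5 in mutants 1 to 3. The highest pool of each group was at about the same level, and the other mutant pools lay below the other control pools (log2 fold change -0.36, 95% interval -1.10 to 0.38, adjusted p = 0.688, limma). This estimate was -0.16 without control pool 3, -0.084 without mutant pool 2 and -0.73 without mutant pool 1.

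*Dhrs3* (chr4:144892827-144928209, plus strand) encodes the reductase that returns retinaldehyde to retinol and so limits the supply of retinoic acid. Its normalized count was 758, 730 and 749 in controls 1 to 3 and 947, 889 and 892 in mutants 1 to 3. The groups were well separated, and the control pools differed among themselves by less than those of any other of the 9 genes (coefficient of variation 1.91%). The mean was 1.22-fold higher in the mutant, with a log2 fold change of 0.29 (SE 0.05, 95% interval 0.16 to 0.41, unadjusted p = 0.000356). Its adjusted p was 0.0594 by limma, 0.0515 by edgeR and 0.0301 by DESeq2 with all 6 libraries. Without control pool 3 it was 0.0187 by limma and 0.0209 by edgeR, with a log2 fold change of 0.29 in both. Without any other single pool the adjusted p was 0.0729 (control pool 2) to 0.273 (mutant pool 3) by limma. The call thus depended on the tool and on which pools were included. The log2 fold change was 0.26 to 0.30 with each pool left out in turn.

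The estimates for the breakdown enzymes had opposite signs. *Cyp26b1* (chr6:84571414-84593908, minus strand) had normalized counts of 483, 493 and 412 in controls 1 to 3 and 584, 544 and 596 in mutants 1 to 3. The groups did not overlap, with the mutant higher, and control pool 3 was the lowest of the 6. The log2 fold change was 0.32 (SE 0.08, 95% interval 0.13 to 0.50, unadjusted p = 0.00318, adjusted p = 0.138, limma), and without control pool 3 it was 0.23 (adjusted p = 0.0943). *Cyp26a1* (chr19:37697798-37701536, plus strand), the isoform most often used as a readout of retinoic acid, had normalized counts of 46.2, 22.7 and 98.4 in controls 1 to 3 and 29.6, 9.80 and 15.7 in mutants 1 to 3. Control pools 1 and 3 were above all mutant pools, but control pool 2 was below mutant pool 1, so the groups overlapped. The log2 fold change was -1.44 (SE 0.51, 95% interval -2.57 to -0.32, unadjusted p = 0.0171, adjusted p = 0.242, limma). Without control pool 3 it was -0.92 (adjusted p = 0.296), and without control pool 2 it was -1.95 (adjusted p = 0.0730), so the size of this difference rested on single control pools.

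The cytosolic binding proteins carry retinoic acid to the nucleus or to the CYP26 enzymes. *Crabp1* (chr9:54764748-54773110, plus strand) had normalized counts of 416, 206 and 656 in controls 1 to 3 and 759, 315 and 602 in mutants 1 to 3. Pools of the same genotype differed from one another by more than the groups did, and pool 2 was the lowest of each group. The log2 fold change was 0.45 (95% interval -0.42 to 1.32, adjusted p = 0.665, limma), and it was 0.84 without control pool 3, 0.0033 without control pool 2, 0.18 without mutant pool 1 and 0.82 without mutant pool 2. *Crabp2* (chr3:87948666-87953376, plus strand) had normalized counts of 1204, 1022 and 1359 in controls 1 to 3 and 1279, 1178 and 1199 in mutants 1 to 3. All mutant pools lay inside the range of the control pools (log2 fold change 0.04, 95% interval -0.16 to 0.24, adjusted p = 0.897, limma), and the estimate was 0.13 without control pool 3 and -0.071 without control pool 2.

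*Rarb* (chr14:16430839-16819156, minus strand) encodes the receptor RARβ and was measured at 1228, 1289 and 1318 normalized counts in controls 1 to 3 and 1350, 1352 and 1312 in mutants 1 to 3. The mutant pools lay at or just above the upper end of the control range, with mutant pool 3 below control pool 3. The log2 fold change was 0.07 (95% interval -0.04 to 0.17, adjusted p = 0.592, limma). Of the 2 genes with the repeat printed above, *Rarb* had a narrow interval that included 0 and *Cyp26a1* had a wide one below 0, and the difference between them was not tested. Exons of *Rarb* overlap those of *Top2b* and *Gm48162* on the opposite strand, and since the sources used here do not say whether counting used strand, their reads cannot be told apart.

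**Figure D2:**
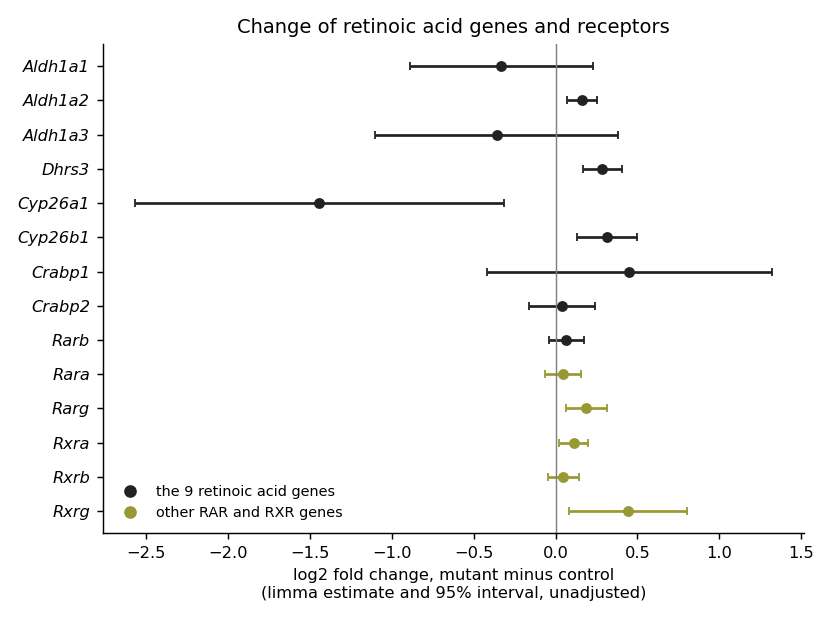
Log2 fold change of mutant minus control (x axis) for the 9 genes and for 5 other receptor genes, with limma's 95% intervals not adjusted for the number of genes. The intervals of *Aldh1a2*, *Dhrs3* and *Cyp26b1* lie above 0 and that of *Cyp26a1*, the widest, lies below 0 from -2.57 to -0.32.

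Levels of different genes were compared as normalized counts per kb of exon, using the union of exons of each gene, on a scale on which a long untranslated region lowers the level. In control pools the order was *Aldh1a2* (1682 ± 42.5 per kb), *Crabp2* (904 ± 128), *Crabp1* (531 ± 281), *Dhrs3* (255 ± 4.87), *Rarb* (243 ± 8.75), *Cyp26b1* (86.5 ± 8.20), *Cyp26a1* (28.1 ± 19.5), *Aldh1a1* (15.5 ± 4.88) and *Aldh1a3* (8.74 ± 2.32). Over all 6 pools the range of *Aldh1a2* was clear of that of *Crabp2*, that of *Rarb* was clear of *Cyp26b1*, and that of *Cyp26b1* was clear of *Cyp26a1*. The ranges of the other neighbours in this order overlapped.

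**Figure D3:**
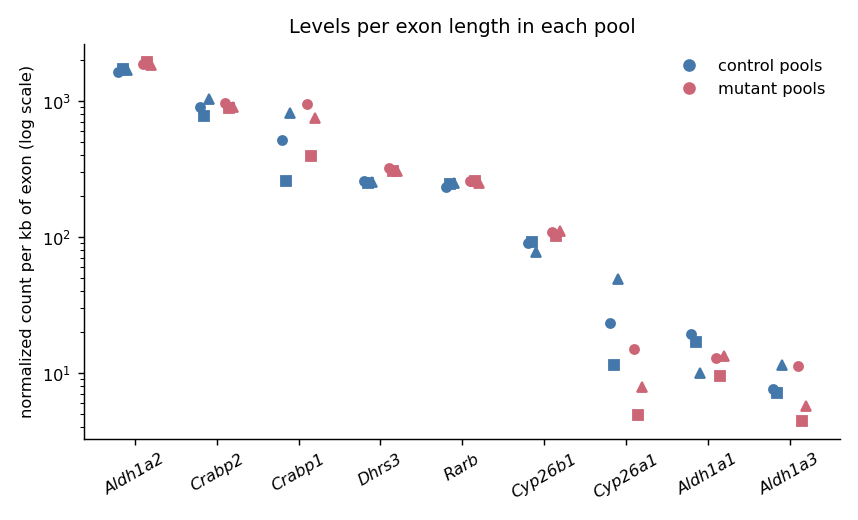
Normalized count per kb of exon (log axis) of the 9 genes in each control and mutant pool, ordered by the control mean, with circles, squares and triangles for pools 1, 2 and 3. *Aldh1a2* is the highest gene in every pool, and *Cyp26a1* spreads from 4.94 to 49.6 per kb over the 6 pools.

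Of the 3 *Aldh1a* genes, *Aldh1a2* held 98.4% to 99.3% of the summed level per kb in each of the 6 pools. Of the 3 *Cyp26* genes, *Cyp26b1* held between 57.0% and 86.0% in controls, and between 85.2% and 95.4% in mutants. *Cyp26a1* held 20.1%, 10.7% and 36.7% in controls 1 to 3 and 11.7%, 4.64% and 6.55% in mutants 1 to 3. Control pools 1 and 3 exceeded every mutant pool in this share, and control pool 2 was below mutant pool 1. Between synthesis and breakdown, the mean log2 ratio of *Aldh1a2* to *Cyp26b1* was 3.04 ± 0.14 in control and 2.89 ± 0.11 in mutant pools (difference -0.15, exact permutation p = 0.3, 2-sided). This ratio and 3 others (*Aldh1a1* to *Aldh1a2*, *Aldh1a3* to *Aldh1a2*, *Crabp1* to *Crabp2*) had p-values adjusted over the 4 ratios of 0.4 to 0.5, where 0.1 is the smallest unadjusted p that 3 pools against 3 can give.

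The other genes of the pathway were taken from 7 lists with 57 genes, of which 51 passed the filter and were tested. At an adjusted p of 0.05 (limma), 1 was higher (*Fgf10*) and 0 were lower, and at an unadjusted p under 0.05 11 of the 51 were higher and 2 were lower, against 6.67% higher and 6.89% lower of all tested genes. Their median log2 fold change was 0.03. *Fgf10*, the mesenchymal growth factor of lung bud outgrowth and a gene of the foregut retinoic acid network, had normalized counts of 603, 611 and 493 in controls 1 to 3 and 844, 979 and 841 in mutants 1 to 3. It rose by 0.64 on the log2 scale (SE 0.09, adjusted p = 0.0322, limma). This call was lost without control pool 1 (adjusted p = 0.192) and without mutant pool 1, 2 or 3 (0.109, 0.118 and 0.149), with log2 fold changes of 0.57 to 0.69, and without limma's variance trend (0.226). The call was kept without control pool 2 (0.0216) and without control pool 3 (0.00204), where the log2 fold changes were 0.70 and 0.54. In the fits with a pool left out that lost it, 1 to 21 of all genes passed, against 86 in the main fit. Of the 9 alternatives other than limma with a pool left out, 8 kept the call. These include edgeR (adjusted p = 0.0357) and DESeq2 (adjusted p = 4.4e-07) on 6 libraries.

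Of the other receptor genes, *Rarg*, *Rxra* and *Rxrg* were higher in every mutant pool than in every control pool, and *Rara* and *Rxrb* overlapped. Of all tested genes, 9.77% were higher in every mutant pool. None of the 5 passed an adjusted p of 0.05 (limma), and 3 had an unadjusted p under 0.05, against 13.6% of all tested genes. *Rarg* had normalized counts of 2034, 2002 and 1971 in controls 1 to 3 and 2457, 2112 and 2281 in mutants 1 to 3, with a log2 fold change of 0.19 (adjusted p = 0.185). *Rxra* had 3390, 3536 and 3368 in controls 1 to 3 and 3644, 3698 and 3779 in mutants 1 to 3 (0.11, adjusted p = 0.246). *Rxrg*, the least abundant of the RXR genes, had 73.7, 79.5 and 103 in controls 1 to 3 and 128, 104 and 116 in mutants 1 to 3 (0.44, adjusted p = 0.259), so that mutant pool 2 was barely above control pool 3. The log2 fold changes of *Rara* and *Rxrb* were 0.04 and 0.05, with 95% intervals of -0.07 to 0.15 and -0.05 to 0.14.

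In the steps before synthesis, no gene passed an adjusted p of 0.05 (limma). *Rdh10*, the main retinol dehydrogenase of the embryo, was at 1190 ± 47.8 normalized counts in control and 1205 ± 20.7 in mutant pools (log2 fold change 0.02, adjusted p = 0.907). *Stra6*, the retinol uptake receptor, was at 1670, 1357 and 2238 in controls 1 to 3 and 1445, 1364 and 1623 in mutants 1 to 3, with control pool 3 well above the others (log2 fold change -0.22, adjusted p = 0.542, and -0.39 to -0.03 with each pool left out in turn). Of the 7 tested genes of uptake and storage 0 had an unadjusted p under 0.05, against 13.6% of all tested genes. Of the 11 tested genes of retinol oxidation 1 did, *Rdh14* (log2 fold change 0.23, adjusted p = 0.356, and 0.13 without control pool 2). *Cyp26c1*, the least abundant *Cyp26* gene, was at 3.93, 6.20 and 14.9 in controls 1 to 3 and 7.15, 0 and 2.94 in mutants 1 to 3, a level at which its log2 fold change of -1.38 (95% interval -3.04 to 0.28) is poorly determined.

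Among 13 tested retinoic acid responsive genes, 3 of the genes described here were higher at an unadjusted p under 0.05. The share of all tested genes was 6.67%, and 0 of the 13 passed the adjusted p (limma). *Hoxa2*, a patterning factor, had a log2 fold change of 0.20 (adjusted p = 0.192), *Meis1*, a cofactor of HOX proteins, of 0.16 (adjusted p = 0.107), and *Rarres1*, named for its response to retinoids, of 0.69 (adjusted p = 0.158). Without control pool 3, *Meis1* passed (adjusted p = 0.0345), and without any other single pool its adjusted p was 0.0968 to 0.385. Of the 8 genes of the foregut network, *Tgfb1*, *Tgfb3* and *Wnt2b* had log2 fold changes of 0.26, 0.28 and 0.21 (adjusted p = 0.0710, 0.253 and 0.205, limma). Their groups did not overlap, the mutant being higher, as for 9.77% of all tested genes. *Tgfb1* passed without control pool 3 (adjusted p = 0.0329), and without any other single pool its adjusted p was 0.0536 to 0.378. Without control pool 3 *Tgfb3* was at 0.14 (adjusted p = 0.186). *Dkk1*, a secreted WNT inhibitor, was at 66.8, 25.8 and 123 in controls 1 to 3 and 24.5, 21.6 and 31.4 in mutants 1 to 3, the same order of control pools as *Cyp26a1* (log2 fold change -1.20, adjusted p = 0.275). Without control pool 2 the log2 fold change was -1.79 (adjusted p = 0.0332), and without control pool 3 it was -0.68 (adjusted p = 0.347).

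**Figure D4:**
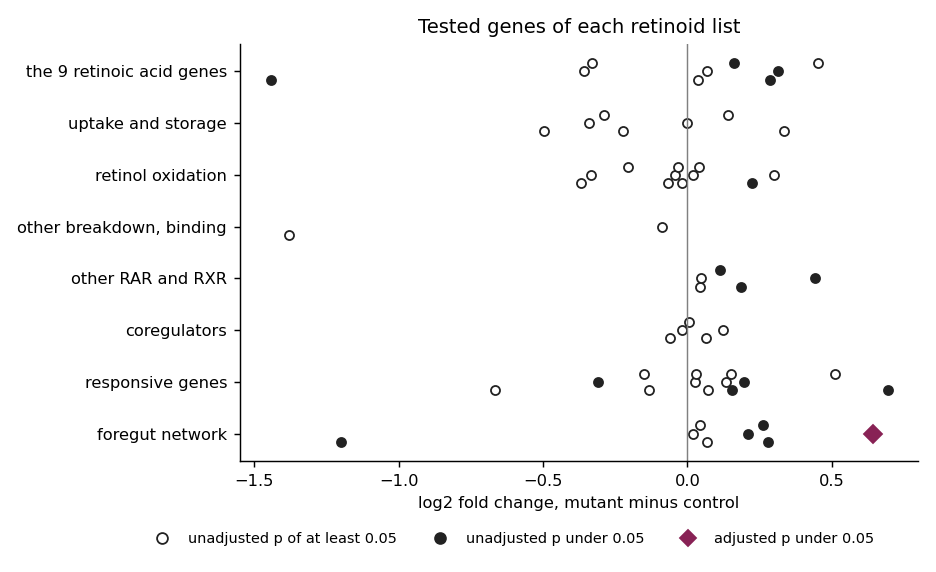
Log2 fold change of mutant minus control (x axis) for each tested gene of the 9 and of the 7 other retinoid lists (rows), with 1 mark per gene and small vertical offsets only to separate marks. Filled circles mark an unadjusted p under 0.05 and the diamond, *Fgf10* at 0.64, is the only gene with an adjusted p under 0.05. The lowest marks are *Cyp26a1* at -1.44, *Cyp26c1* at -1.38 and *Dkk1* at -1.20.

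Several of these genes are known for expression in 1 tissue layer, and whole lungs cannot separate fewer cells of a type from less RNA per cell. Summed markers of these layers differed between the groups without overlap, and abundant genes weigh most in such sums. Among all tested genes taken singly, 20.2% did not overlap and 0.501% passed the adjusted p (limma). The summed normalized count of 20 epithelial markers was 24762 to 29903 in control and 21067 to 22307 in mutant pools, with 17 of 20 genes lower and 7 passing the adjusted p. The sum of 8 mesothelial markers, a layer in which *Aldh1a2* is expressed, was 5660 to 6098 in control and 6344 to 7010 in mutant pools, with 7 of 8 higher. Of these 8, only *Wt1* passed, just under the threshold (log2 fold change 0.31, adjusted p = 0.0496, limma). The 1 lower gene was at -0.52, with an unadjusted p of at least 0.05 (limma). The most abundant, *Upk3b* and *Rspo1*, had log2 fold changes of 0.20 and 0.07 (adjusted p = 0.219 and 0.727, limma). The sum of 10 mesenchymal markers was 86283 to 92008 in control and 102929 to 108575 in mutant pools, with 10 of 10 higher and 2 passing, the collagen genes *Col1a1* (0.49, adjusted p = 0.0125) and *Col3a1* (0.26, adjusted p = 0.0470). These 2 were also the most abundant of the 10, whose median log2 fold change was 0.12. The part of these shifts in the differences of *Aldh1a2*, *Dhrs3* and *Cyp26b1* was not tested.

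Markers of other tissues that a dissected lung can carry were summed in the same way. For *Cyp26a1*, 4 gut markers, of which only 1 passed the filter on low values, summed to 149, 98.1 and 200 in controls 1 to 3. In mutants 1 to 3 the sum was 103, 134 and 128. Among the controls pool 3 was highest and pool 2 lowest for both the sum and *Cyp26a1*. Among the mutants pool 2 was highest for the sum and lowest for *Cyp26a1*, and pool 1 the reverse. *Cdx2*, which defines intestine, was at 0 in all pools. Cardiac markers summed to 529 to 690 in control and 457 to 511 in mutant pools, and liver markers to 263 to 396 and 237 to 285. For *Crabp1*, which is known from neural crest, 8 neural crest markers summed to 5420, 5756 and 4537 in control pools, an order opposite to that of *Crabp1*, and to 5885, 5270 and 5765 in mutant pools, the same order as *Crabp1*. The part of any of these tissues in the values of *Cyp26a1* and *Crabp1* was not tested.

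The genes whose normalized counts were most like those of *Dhrs3* and *Aldh1a2*, the members with the lowest p, were found by Pearson's r of log2 values over the 6 pools among 12501 genes with a mean of at least 50. For *Dhrs3* they were *Ttc23* (r = 0.995), *Eid1* (0.995) and *Magee1* (0.993). For *Aldh1a2* they were *Smarca1* (0.992), *St8sia4* (0.984) and *Insig2* (0.984). The 6 pools include both genotypes, which adds to r for genes whose groups are separated, and these values are a description.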

How the data were processed

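Whole lungs in 3 control and 3 mutant pools at 11.5 *dpc* were grouped by the genotype in the labels. The authors deposited 1 table of signal values, which are normalized counts, in which a size factor for each library has been divided out of its reads per gene, made per the submitters' processing notes with Trim Galore, HISAT2, featureCounts and DESeq2 on mm10, without versions. The deposited p-values, log2 fold changes and scores (a standard error and a test statistic) come from a comparison by the authors and were not used. All values of the 6 libraries were within 0.01 of whole multiples of 1 step, which gave the reads, although for control pool 3 this step is too close to 1 for an independent check. Intervals cover the spread between pools only, which are not stated to be separate litters.

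The main test was limma 3.58.1 (R 4.3.3, trended variance) without a replicate block, on log2(value + 1), which understates changes of low genes. Alternatives were no trend, upper-quartile scaling, values of 10 or more throughout, unfiltered values, adding 0.1 in place of 1, a block for the replicate number, fits that omit 1 pool, and edgeR 4.0.16 and DESeq2 1.42.0 on recovered reads of 6 libraries. After seeing the data, edgeR without control pool 3 was added. The main limma fit, edgeR and DESeq2 were tested on simulated data of 6 libraries, and the other fits were not. Coordinates and exon lengths are those of GENCODE M21 (GRCm38), and promoters are from RefSeq (GRCm38.p6), with entries for 7 of the 9 genes. The 9 genes, the gene lists and the tests were chosen with earlier results of these data known. Named genes are the 9, *Rptor*, preset pathway genes, other pathway genes with an unadjusted p under 0.05, the 3 nearest genes of 2 members, and the 2 most abundant genes of a marker list. *Wt1*, *Cdx2*, *Rptoros*, *Top2b* and *Gm48162* were named after their values were seen, and some genes of the rule are not reported here.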

Additional observations from a re-analysis of the deposited data

How the results depend on the processing

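The number of the 9 genes at an adjusted p under 0.05 was 0 with limma and also without the trend, with upper-quartile scaling, with a minimum of 10 (which leaves out *Cyp26a1*, so that 8 of the 9 were tested), without a filter, with a pseudocount of 0.1 and with edgeR on 6 libraries. It was 1 with DESeq2 on 6 libraries, 2 with edgeR on 5 libraries, and 0 to 1 when each pool was left out in turn, the 1 coming without control pool 3. Of the other retinoid pathway genes 1 passed with limma, 0 without the trend, 3 with DESeq2, 5 with edgeR on 5 libraries and 0 to 5 with a pool left out. Of all tested genes 86 passed with limma, 8 without the trend, 279 with DESeq2, 545 with edgeR on 5 libraries, and 1 to 468 with a pool left out, the highest without control pool 3 and the lowest without control pool 1 or mutant pool 3. The direction of each of the 9 genes held in all of these in which it was tested except for *Crabp2*, at -0.071 without control pool 2 (-0.071 to 0.13 over the fits with a pool left out). The cause of these shifts was not tested. The replicate numbers did not pair the pools: same-numbered pools had correlations of their deviations of -0.02, 0.10 and 0.03 across genes, not every pool correlated best with its own number, and with the replicate block 0 of the 9 genes, 1 of the other pathway genes and 71 of all genes passed. With 3 pools per group, the 95% intervals of *Aldh1a1*, *Aldh1a3* and *Crabp1* span over 1 on the log2 scale and allow either direction.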
